A study of Mus musculus with 6 samples.

Results

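The insulin-like growth factor (IGF) axis was described in hippocampal microglia that were poor or rich in lipid droplets, sorted after treatment of mice with lipopolysaccharide (LPS), an inflammatory molecule of bacteria. The members were taken by symbol from the deposited gene table: 2 ligands (Igf1 and Igf2), 2 receptors (Igf1r and Igf2r) and 4 binding proteins (Igfbp2, Igfbp4, Igfbp5 and Igfbp7), which are 8 of the 15912 genes listed. Both groups came from male C57BL/6 mice aged 3 months. LPS was injected intraperitoneally at 1 mg/kg on 4 days, tissue was taken 24 h after the last dose, and each sample pooled the hippocampi of 2 mice. The sort took about 10000 live cells that were CD11b+ and CD45lo, the usual microglial gate. BODIPY, a dye of neutral lipids, then divided them into a BODIPY-low and a BODIPY-high gate, with 3 libraries each. No cells of mice without LPS were analysed here, so no value below speaks to LPS itself.

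IGF1 and IGF2 are small secreted hormones related to insulin that promote growth and survival of cells. Both act through the type 1 receptor (Igf1r), a tyrosine kinase that signals through the PI3K-AKT and RAS-ERK routes, while the type 2 receptor (Igf2r) binds IGF2 and carries it, with mannose 6-phosphate tagged enzymes, to the lysosome. Secreted binding proteins hold most IGF outside cells and set how much of it reaches a receptor. In the brain, microglia and other macrophages are a known source of IGF1, and Igf2 and Igfbp2 are known transcripts of the choroid plexus and the meninges.

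The libraries held 34899413 to 39220494 reads. Values are normalized counts, which are reads per gene divided by a factor for the size of each library, and log2 changes are BODIPY-high minus BODIPY-low on the log2(normalized count + 1) scale, which understates the change of genes with few reads. A gene entered the limma test with at least 10 normalized counts in at least 3 of the 6 libraries, and was called at an adjusted p under 0.05 over all genes tested. In the sorted cells, all 12 microglia markers were present in every library, and their summed level was 2602788 to 2989091 normalized counts in BODIPY-low and 2030888 to 2715469 in BODIPY-high libraries. Markers of some other cells were called higher in the high gate, where 2.03% of all genes tested were. These were 10 of 10 for the choroid plexus epithelium, 9 of 12 for border-associated macrophages and 4 of 8 tested for astrocytes. Fibroblast and meningeal cells had 2 of 4 tested, oligodendrocyte precursors 2 of 3, mural cells 1 of 4 and oligodendrocytes 1 of 6. Pdgfra is on both the fibroblast and meningeal list and the oligodendrocyte precursor list, so these lists are not independent. Endothelial cells had 0 of 12, monocytes and neutrophils 0 of 8, neurons 0 of 3 and ependymal cells 0 of 1. Some markers had under 10 normalized counts in every low library and entered through the high gate alone, so they had to differ. These counts are a description, and nothing is read from them against that share. BODIPY-high library 3 had the highest level of the border-associated macrophage markers, and BODIPY-low library 3 the highest of its gate.

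Of the 8 members, 7 entered the test, and 3 of these rose in BODIPY-high libraries: Igfbp2, Igf2 and Igf1. Of all genes tested, 2.03% were called higher, 0.0235% lower and 2.05% in either direction, and no member was called lower. With the library number as a block the same 3 members were called, where 4.37% of all genes were called higher and 0.462% lower. The limma adjusted p with the block was 9.1e-05 for Igf1, 0.0033 for Igf2 and 3.1e-05 for Igfbp2. Igf2 had at least 10 normalized counts in 0 of the low libraries, so it entered through the high gate alone and had to differ. Igfbp2 had that level in 1 low library and entered through the high gate, which favours a rise. The count of 3 is therefore a description, and nothing is read from it against those shares. Igf1 and Igfbp4, which passed the filter in both gates, had every BODIPY-high library above every BODIPY-low library, as 10.4% of all genes tested did, and 5.95% had the reverse. Igf2 and Igfbp2 did not overlap either, which for Igf2 was fixed by the filter. Igfbp5 did not enter. In RNA from sorted pools, more cells of one type and more RNA per cell cannot be told apart.

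**Figure D1:**
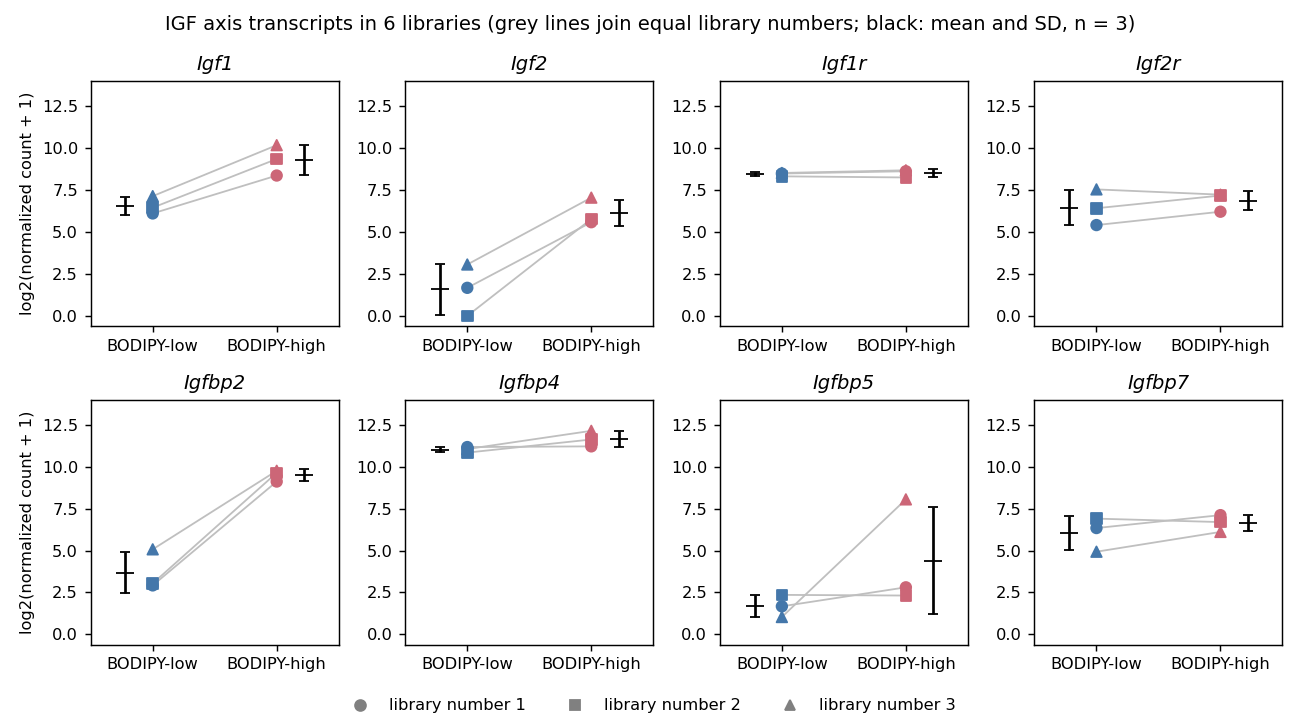
Each panel plots 1 member as log2(normalized count + 1) in 3 BODIPY-low and 3 BODIPY-high libraries; symbols mark the library number, grey lines join equal numbers, and black bars give the mean and SD. Igf1, Igf2, Igfbp2 and Igfbp4 have no overlap between gates, Igf1r is level, and Igfbp5 is raised in BODIPY-high library 3 alone.

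Both ligands rose. Igf1 (chromosome 10, 87858265 to 87937042, build GRCm38), the ligand known from microglia, had 68.0, 86.6 and 140.0 normalized counts in BODIPY-low libraries 1, 2 and 3, and 329, 653 and 1157 in BODIPY-high libraries 1, 2 and 3. Every BODIPY-high library was thus above every BODIPY-low library, and library 3 was the highest of each gate. The means were 98.2 ± 37.4 and 713 ± 417 (SD, n = 3 per gate), a ratio of 7.26, and the log2 change was 2.73 ± 0.45 (SE; 95% interval 1.72 to 3.75; limma adjusted p = 0.0202). Within pairs of the same library number the ratio was 4.84, 7.54 and 8.26. In fits without the block, leaving out 1 library ended the call for BODIPY-low 1 (adjusted p = 0.0679), BODIPY-low 2 (0.0757), BODIPY-high 2 (0.117) and BODIPY-high 3 (0.0630). The log2 changes were 2.29 to 3.20 over all libraries left out in turn.

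Igf2 (chromosome 7, 142650766 to 142666816), the fetal growth ligand, was close to the detection limit in the low gate. It had 2, 0 and 7 reads in BODIPY-low libraries 1, 2 and 3 and 47, 54 and 143 reads in BODIPY-high libraries 1, 2 and 3. A count of 0 allows up to 3 reads, here 3.09 normalized counts. The gates did not overlap, and library 3 again had the most in each. Normalized counts were 3.19 ± 3.78 and 77.5 ± 46.9 (SD, n = 3), and the log2 change was 4.56 ± 0.86 (SE; 95% interval 2.62 to 6.50; limma adjusted p = 0.0328). The ratio of reads, scaled for library size, was 24.8 (exact 95% counting interval 12.9 to 55.0). Most low-gate reads came from library 3: without it, 2 reads remained and the ratio was 74.3 (20.4 to 617), while the ratio of means went from 24.3 to 15.8 without BODIPY-high library 3. With BODIPY-low 1 or 2 left out the adjusted p was 0.0846 or 0.0674. With BODIPY-high 1, 2 or 3 left out it was 0.0784, 0.147 or 0.159. The call thus held in 1 of these 6 settings, without BODIPY-low library 3 (0.0173). Igf2 was under 10 normalized counts in every BODIPY-low library and entered the test through the high gate alone, so it had to differ. Its p-values and intervals are therefore a description.

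In the GENCODE M21 annotation, 3596 of the 5723 exon bases of Igf2 (62.8%) also belong to the overlapping gene Gm49394 on the same strand. The annotation behind the deposited counts was not given in the sources used here, so whether reads of these shared bases were counted for Igf2 is not known. The neighbouring insulin gene Ins2 had no more than 9.20 normalized counts in any library.

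The receptors showed no called change. Igf1r (chromosome 7, 67952827 to 68233668), which carries the signal of both ligands, had 358, 319 and 366 normalized counts in BODIPY-low libraries 1, 2 and 3 and 393, 304 and 409 in BODIPY-high libraries 1, 2 and 3. The gates overlapped, and the spread within a gate exceeded the gap between the means of 348 ± 25.4 and 369 ± 56.7 (SD, n = 3). The log2 change was 0.08 ± 0.19 (SE; limma adjusted p = 0.948), and its 95% interval of -0.35 to 0.51 leaves room for changes of that size either way. Igf1r had the narrowest interval of the 7 members tested.

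Igf2r (chromosome 17, 12682406 to 12769664), the clearance receptor for IGF2, had 41.7, 84.6 and 185 normalized counts in BODIPY-low libraries 1, 2 and 3 and 73.1, 144 and 149 in BODIPY-high libraries 1, 2 and 3. Library 1 was lowest in both gates, and the gates overlapped. The log2 change was 0.41 ± 0.54 (SE; 95% interval -0.80 to 1.63; limma adjusted p = 0.881). It became -0.11 without BODIPY-low library 1. The antisense RNA Airn lies across part of Igf2r without sharing exon bases with it. The library kits keep no strand, so reads of that antisense RNA within Igf2r exons could not be told from those of Igf2r.

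Among the binding proteins, Igfbp2 had the largest change of all members. Igfbp2 (chromosome 1, 72824503 to 72852474), a binding protein of cerebrospinal fluid, had 6.58, 7.22 and 32.6 normalized counts in BODIPY-low libraries 1, 2 and 3 and 553, 794 and 863 in BODIPY-high libraries 1, 2 and 3. The lowest BODIPY-high library was well above the highest BODIPY-low library, and in reads the gates held 44 and 2286. The means were 15.5 ± 14.9 and 736 ± 163 (SD, n = 3), a ratio of 47.6, and the log2 change was 5.82 ± 0.56 (SE; 95% interval 4.56 to 7.08; limma adjusted p = 0.00354). BODIPY-low library 3 held 31 of the 44 low-gate reads, and without it the ratio was 107. The call held when any 1 library was left out (adjusted p up to 0.0385), and in all 15 alternatives run. Only BODIPY-low library 3 reached 10 normalized counts in the low gate, so Igfbp2 entered the test through the high gate, which favours a rise. Fits with 1 library left out kept the same genes. These p-values and the interval are therefore a description.

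The upstream windows of Igfbp2 and Igf2, the members with the largest log2 changes, are shown because they rose together. RefSeq (build GRCm38.p6) gave 12 annotated starts for the 8 members. The windows below are the 250 bases before a start, for Igfbp2 the first (chr1:72824230-72824479, plus strand) and for Igf2 the last of its 4 (chr7:142657497-142657746, minus strand), both outside the exons of their gene. The counts do not say which start was used. Capitals mark GGGCGG, the GC box, searched on both strands.
Igfbp2: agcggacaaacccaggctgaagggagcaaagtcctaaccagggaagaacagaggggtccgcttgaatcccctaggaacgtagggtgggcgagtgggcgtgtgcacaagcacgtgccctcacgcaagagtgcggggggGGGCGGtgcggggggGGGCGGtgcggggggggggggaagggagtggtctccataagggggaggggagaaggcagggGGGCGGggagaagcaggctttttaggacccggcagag
Igf2: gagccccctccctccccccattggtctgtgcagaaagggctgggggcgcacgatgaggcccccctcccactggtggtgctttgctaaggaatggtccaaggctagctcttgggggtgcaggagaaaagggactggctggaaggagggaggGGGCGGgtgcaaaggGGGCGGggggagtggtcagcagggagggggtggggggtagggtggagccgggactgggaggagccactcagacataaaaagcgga
The Igfbp2 window holds 3 GC boxes and the Igf2 window 2. Of all 12 windows of the members, 6 hold at least 1, while 32.7% of 32851 promoter windows of this length do. A TATAAA box was found in neither printed window, and in 12.4% of all windows. The other Igfbp2 start holds 0 GC boxes and the other 3 Igf2 starts 0, 0 and 1, so the printed windows hold the most of each gene. The windows of Igfbp7, Igf2r and Igf1r, which were not called, hold 4, 3 and 2. Those of Igf1, which was called, and of Igfbp4 and Igfbp5 hold 0. These matches describe letters only and are not evidence of binding.

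Igfbp4 (chromosome 11, 99041244 to 99054392), which restrains IGF action until it is cleaved, was the most abundant member in both gates. It had 2300, 1828 and 2118 normalized counts in BODIPY-low libraries 1, 2 and 3 and 2366, 3143 and 4496 in BODIPY-high libraries 1, 2 and 3. BODIPY-high library 1 lay just above the highest low value and library 3 far above it. The means were 2082 ± 238 and 3335 ± 1078 (SD, n = 3), and the log2 change of 0.64 ± 0.21 (SE; 95% interval 0.16 to 1.11) did not pass (limma adjusted p = 0.271). Same-number ratios were 1.03, 1.72 and 2.12.

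Igfbp7 (chromosome 5, 77349240 to 77408041), a matrix-bound relative with low affinity for IGF that is known from vessels, had 80.1, 119 and 29.5 normalized counts in BODIPY-low libraries 1, 2 and 3 and 137, 103 and 68.1 in BODIPY-high libraries 1, 2 and 3. Library 3 was the lowest of each gate, opposite to the ligands, and the gates overlapped. The log2 change was 0.58 ± 0.52 (SE; 95% interval -0.61 to 1.77; limma adjusted p = 0.818). Leaving out BODIPY-low 3 brought it to 0.017, and leaving out BODIPY-low 2 to 1.003. In M21, 85 of its 1209 exon bases overlap those of Polr2b on the opposite strand, so some reads cannot be assigned to a strand there.

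Igfbp5 (chromosome 1, 72857932 to 72874884), which lies next to Igfbp2 in the opposite orientation and binds both IGF and matrix, had 2.19, 4.13 and 1.05 normalized counts in BODIPY-low libraries 1, 2 and 3 and 6.01, 3.99 and 264 in BODIPY-high libraries 1, 2 and 3. A single library, BODIPY-high 3, held 287 of the 297 reads of its gate. Igfbp5 was below the filter in the other 5 libraries and was not tested. With no filter the log2 change was 2.70 ± 1.35 (SE; limma adjusted p = 0.534). The ratio of means was 37.2 with BODIPY-high library 3 and 2.03 without it.

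Levels of different genes are compared per kilobase of exon, over all annotated exon bases. For Igf2 these include the bases shared with Gm49394. If reads there were not counted for Igf2, its level per kilobase would be higher than given. In the low gate the order of mean normalized counts per kilobase was Igfbp4 (472 ± 53.8, SD, n = 3), Igfbp7 (62.9 ± 37.0), Igf1r (20.7 ± 1.51), Igf2r (11.2 ± 7.92), Igf1 (9.92 ± 3.77), Igfbp2 (8.38 ± 8.05), Igf2 (0.557 ± 0.661) and Igfbp5 (0.409 ± 0.259). Neighbours from Igf1r to Igfbp2 overlapped in their libraries, as did Igf2 and Igfbp5. In the high gate Igfbp4 was still first (755 ± 244), Igfbp2 came next (399 ± 88.1), and Igfbp7 (84.9 ± 28.6) and Igf1 (72.0 ± 42.1) overlapped each other. Igf1r (21.97 ± 3.38), Igfbp5 (15.2 ± 24.9), Igf2 (13.5 ± 8.20) and Igf2r (13.1 ± 4.55) followed, each overlapping the next.

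**Figure D2:**
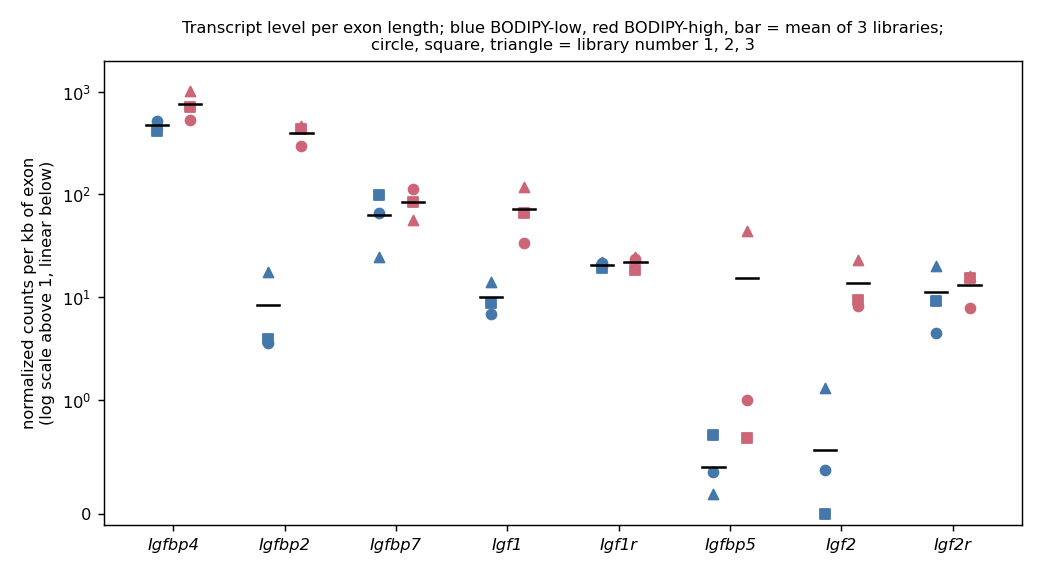
Normalized counts per kilobase of exon are plotted for each member in BODIPY-low (blue) and BODIPY-high (red) libraries, with the mean as a bar; the axis is logarithmic above 1 and linear below. Igfbp2 moves from 8.38 to 399 per kilobase, while Igf1r has 20.7 and 21.97.

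The makeup of the axis differed between gates. Per kilobase, Igfbp2 made up 0.603 to 3.39% of the transcripts of the 4 binding proteins in the BODIPY-low libraries and 29.5 to 35.0% in the BODIPY-high libraries, and Igfbp4 80.1 to 91.9% and 56.4 to 64.2%. The share of Igf2 among ligand transcripts was 0 to 8.35% in the low gate and 12.5 to 19.8% in the high gate, so Igf1 was the main ligand in every library. This share also uses all exon bases of Igf2, and would be higher if the bases shared with Gm49394 were not counted. The summed ligands were at 7.25 to 15.4 and 41.5 to 139.8 normalized counts per kilobase, and the summed binding proteins at 516.7 to 590.9 and 949.5 to 1585. The summed receptors overlapped, at 25.8 to 41.7 and 31.3 to 40.4. Binding protein transcripts outnumbered ligand transcripts per kilobase in every library.

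The members were set beside marker lists library by library, as the log2 deviation of each gene from its own mean over the 6 libraries. Igfbp2 lay at -3.67, -3.55 and -1.52 in BODIPY-low libraries 1, 2 and 3 and at 2.52, 3.05 and 3.17 in BODIPY-high libraries 1, 2 and 3. The median of the 10 choroid plexus epithelium markers lay at -3.68, -3.83 and -1.27 and at 2.55, 3.10 and 3.10 in the same libraries. Igf2 lay at -2.18, -3.86 and -0.79 and at 1.73, 1.92 and 3.19. Summed, the choroid plexus markers had 314 to 2354 normalized counts in BODIPY-low libraries and 40166 to 52769 in BODIPY-high libraries, led by Enpp2, Ttr and Kl, and none was at 0 in all low libraries. Fibroblast and meningeal markers, another known site of Igf2, had 2 of 4 tested called higher, summed levels of 61.4 to 143 and 484 to 1303, and Col1a1, Col3a1 and Pdgfra at 0 in every low library. The part of either list in the Igf2 and Igfbp2 results was not tested.

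Igf1 deviated by -1.82, -1.48 and -0.79 in BODIPY-low libraries 1, 2 and 3 and by 0.43, 1.42 and 2.24 in BODIPY-high libraries 1, 2 and 3. The median of the 12 border-associated macrophage markers was -2.50, -2.44 and -0.57 and then 0.92, 1.36 and 3.21, which puts the 6 libraries in the same order. The fibroblast and meningeal list (-1.91, -1.38 and -0.88, then 1.06, 1.08 and 2.51) and the oligodendrocyte list (-0.54, -0.50 and -0.21, then 0.01, 0.04 and 1.79) gave that order too, so it is not particular to border-associated macrophages. Their sum ran from 17574 to 24502 in the low gate and from 43994 to 122302 in the high gate, in normalized counts, led by Stab1, Mrc1 and Dab2, and none was at 0 in all low libraries. Igfbp4 was at -0.17, -0.50 and -0.29 and then -0.13, 0.28 and 0.80. Microglia markers had a median of 0.15, 0.12 and 0.08 and then 0.04, -0.09 and -0.34. The part of these lists in the Igf1 result was not tested.

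The remaining binding proteins were set beside other lists. Igfbp7 deviated by -0.01, 0.55 and -1.42 in BODIPY-low libraries 1, 2 and 3 and by 0.76, 0.35 and -0.24 in BODIPY-high libraries 1, 2 and 3, beside endothelial markers at 0.55, 0.11 and -1.0004 and then 0.39, 0.39 and -0.61. Library 3 was the lowest of each gate for both. No endothelial marker of 12 was called (1 at an unadjusted p under 0.05 as higher, 0 as lower), and their summed levels of 1352 to 2466 and 1323 to 2099 normalized counts overlapped between gates. Igfbp5 stood at 5.01 in BODIPY-high library 3, where the median of 6 oligodendrocyte markers was 1.79, while BODIPY-high 1 and 2 were at 0.01 and 0.04. Other lists were also highest in that library: border-associated macrophages at 3.21, oligodendrocyte precursors at 2.68, fibroblast and meningeal cells at 2.51 and monocytes and neutrophils at 1.21. The precursor list and the fibroblast and meningeal list share Pdgfra. Of the fibroblast and meningeal markers, Slc47a1 had 0, 0 and 38 reads and Col1a1 0, 0 and 10 reads in BODIPY-high libraries 1, 2 and 3. Both were picked for that pattern after their values were seen. The list as a whole did not share it: the median of its 4 tested markers was at 1.06 and 1.08 in BODIPY-high 1 and 2. Summed oligodendrocyte markers were at 7175 to 7265 and 8224 to 14440 normalized counts. The part of any of these lists in the Igfbp7 and Igfbp5 values was not tested.

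**Figure D3:**
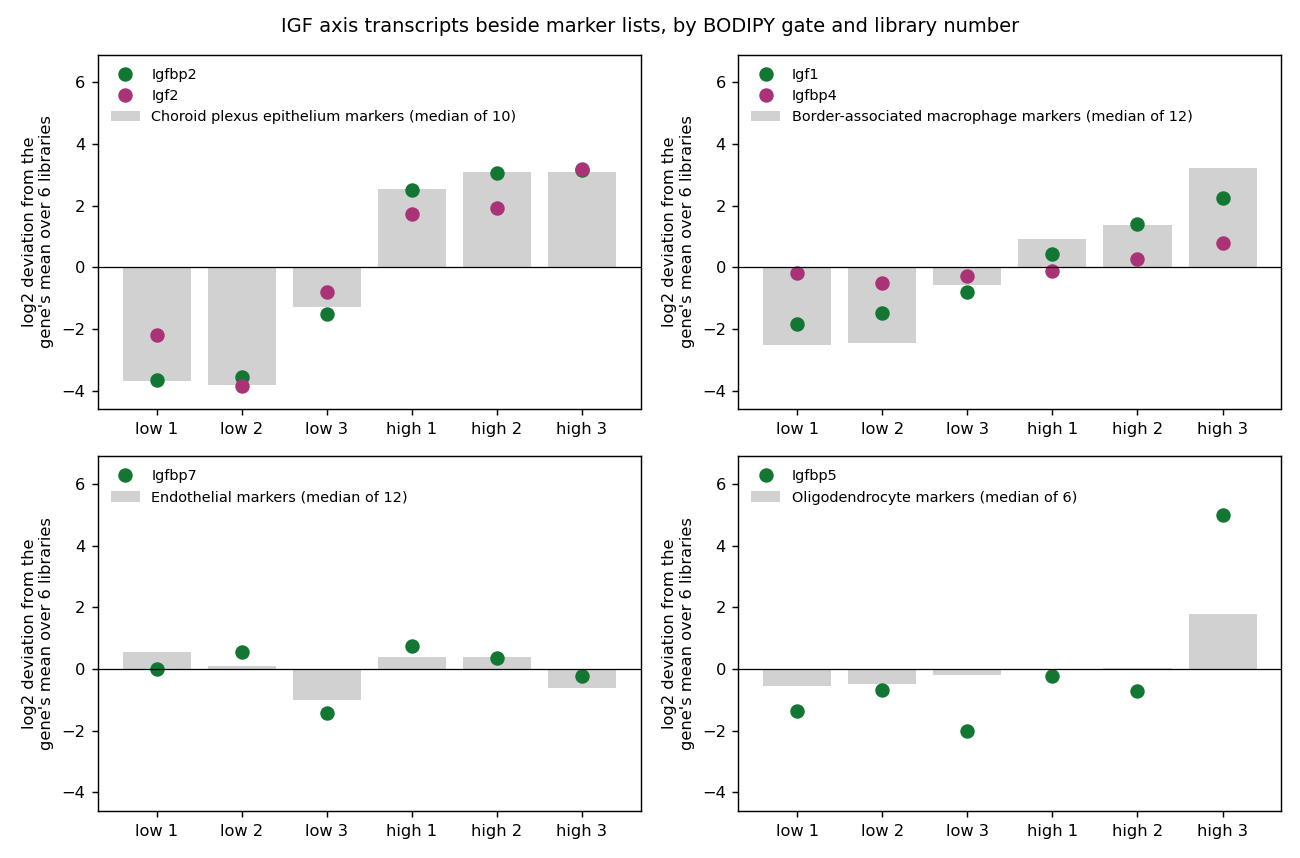
Points give the log2 deviation of a member from its mean over 6 libraries, and grey bars the median deviation of a marker list. Igfbp2 and Igf2 are shown with choroid plexus markers, Igf1 and Igfbp4 with border-associated macrophage markers, Igfbp7 with endothelial markers and Igfbp5 with oligodendrocyte markers; Igfbp5 stands at 5.01 in BODIPY-high library 3 only.

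The genes whose log2 values ran most like each member were taken by Pearson correlation over the 6 libraries, among 10452 genes with a mean of at least 50. With so few libraries that also fall into 2 gates, high values arise for many genes, and they are a description only. Igfbp2 was nearest to the potassium channel gene Kcnj13, the sulfate transporter gene Slc13a4 and the transthyretin gene Ttr (r = 0.999 each), of which Kcnj13 and Ttr are on the choroid plexus list. Igf1 was nearest to Elovl7, an enzyme of fatty acid elongation, the zinc transporter gene Slc30a9 and the formyl peptide receptor gene Fpr1 (r = 0.997 each). Igf2 was nearest to Gga2, Prkacb and Dennd2d (0.998, 0.997 and 0.996), and Igf2r to Igf2bp2, Bloc1s1 and Ccndbp1 (0.997, 0.990 and 0.989). Igfbp4 was nearest to Acss2, Slc14a1 and the erythropoietin receptor gene Epor (0.994, 0.992 and 0.991). The nearest genes of Igf1r began with Phf1 (0.985) and those of Igfbp7 with Suv39h2 (0.986).

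Around the 8 members, no tested gene of the wider pathway was called. Of 60 genes on the lists of other binding and availability genes, insulin receptor and adaptors, the PI3K-AKT-FOXO-mTOR arm and the RAS-ERK arm, 48 were tested and 0 passed limma in either direction, where 2.05% of all genes tested did. A count of 0 among 48 is near that background. At an unadjusted p under 0.05, 5 were higher and 2 lower, where 8.03% and 2.27% of all genes tested were. The median log2 change was -0.03, against -0.004 over all genes tested, and 43 of the 48 changed by less than 0.5 (84.0% of all genes tested).

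By role, 0 of 3 tested genes of binding and availability, 0 of 10 of the insulin receptor and its adaptors, 0 of 25 of the PI3K-AKT-FOXO-mTOR arm and 0 of 10 of the RAS-ERK arm passed. Htra1, a secreted protease that can cut binding proteins, had 6.58, 15.5 and 5.26 normalized counts in BODIPY-low libraries 1, 2 and 3 and 46.0, 46.9 and 137 in BODIPY-high libraries 1, 2 and 3. Only BODIPY-low library 2 reached 10 normalized counts in the low gate, so Htra1 entered the test through the high gate, which favours a rise. Its values are therefore a description. The gates did not overlap, and in 10.4% of all genes tested every BODIPY-high library was likewise above every BODIPY-low library. The log2 change of Htra1 was 2.88 ± 0.63 (SE; limma adjusted p = 0.0612). With the library number as a block it passed (adjusted p = 0.0272), but not with the block and library 3 of both gates left out (0.187). Ide, the insulin-degrading enzyme, had 3268 ± 242 and 3796 ± 101 normalized counts (SD, n = 3; log2 change 0.22 ± 0.09, SE; adjusted p = 0.467).

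The insulin receptor gene Insr, a close relative of Igf1r, had 946, 816 and 563 normalized counts in BODIPY-low libraries 1, 2 and 3 and 599, 488 and 416 in BODIPY-high libraries 1, 2 and 3. It was lower in 3 of 3 pairs of the same number, with overlap between gates, and the log2 change was -0.61 ± 0.22 (SE; limma adjusted p = 0.345), which passed with the block (adjusted p = 0.0306) but not with the block and without library 3 of both gates. Irs1, an adaptor that couples both receptors to PI3K, had 0 reads in all BODIPY-low libraries and 44 in the BODIPY-high libraries (14.4 ± 9.27 normalized counts), at least 13.6-fold higher over a floor of 3 reads in the low group. Without BODIPY-high library 2, which held 25 of the 44 reads, that bound was 8.66-fold. It did not enter the test, and passed with no filter (adjusted p = 0.0307). Irs1 and Insr were named after their values were seen. The inhibitory adaptors Grb10 (4.22 ± 3.09 to 22.9 ± 10.5) and Grb14 (13.1 ± 4.17 to 41.8 ± 19.6) were also chosen that way and did not pass (adjusted p = 0.301 and 0.308). Grb10 was under 10 normalized counts in every BODIPY-low library and entered the test through the high gate alone.

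Genes of the signalling core were abundant and showed small differences. The lipid phosphatase gene Inpp5d had 37789 ± 3913 and 39198 ± 4460 normalized counts (SD, n = 3; log2 change 0.05; adjusted p = 0.944), and the PI3K catalytic subunit gene Pik3cd 9491 ± 967 and 9919 ± 1373 (0.06, 0.934). The phosphatase gene Ptpn1, the adaptor gene Grb2 and the kinase gene Map2k1 had log2 changes of -0.09, -0.09 and 0.01 (adjusted p of 0.837, 0.885 and 0.990). Of the IGF2 mRNA-binding proteins, Igf2bp2 had 506 ± 134 and 566 ± 78.0 normalized counts and Igf2bp3 37.2 ± 27.3 and 60.9 ± 25.4 (adjusted p = 0.867 and 0.720).

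**Figure D4:**
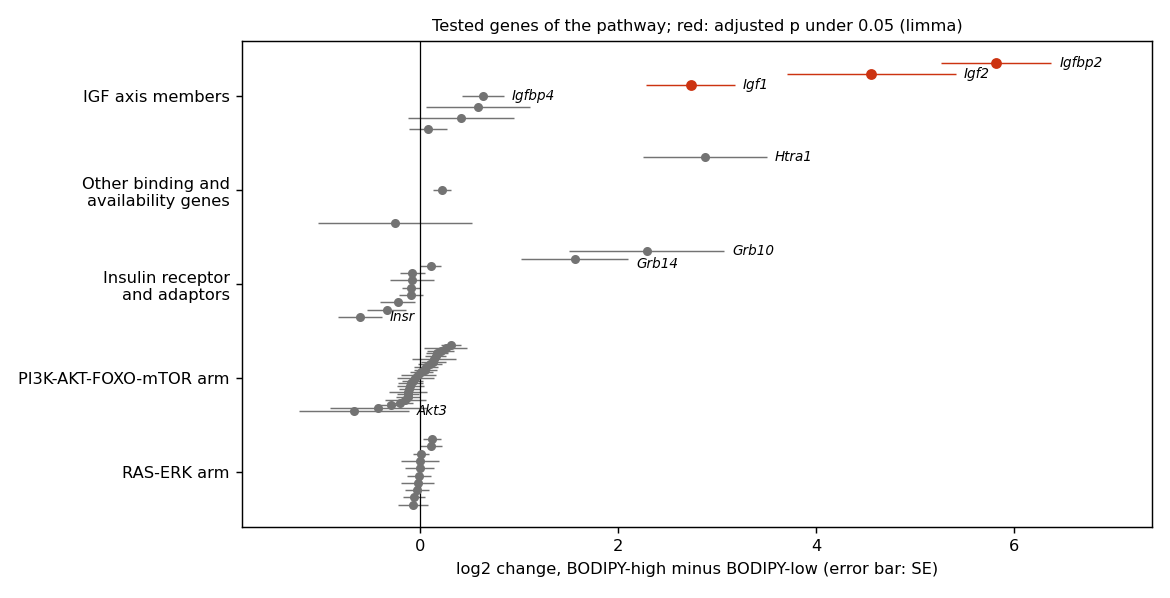
Log2 changes (BODIPY-high minus BODIPY-low) with SE are plotted for the 7 tested members and the 48 tested genes of 4 pathway lists; red marks an adjusted p under 0.05. Igfbp2, Igf2 and Igf1 are the genes in red, and the RAS-ERK arm lies between -0.07 and 0.12.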

How the data were processed

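RNA of sorted hippocampal microglia was sequenced in 6 libraries. Per the series' design text, the authors used STAR 2.5.3a both to map reads to mm10 and to count them by gene, followed by DESeq2; annotation and strand setting are not given in the sources used here, and the submitters' processing notes list mm9 and mm10. The deposited values are a normalized signal per gene, the authors' gene counts divided by 1 size factor per library. All values of a library (100%) were whole multiples of its step within 0.05 of a read, and value divided by step is given as reads. Reads are not independent molecules, so intervals and the floor of 3 reads cover counting error only.

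The gates were compared with limma 3.58.1 (R 4.3.3), two-sided, with trend, on log2(normalized count + 1), for 12767 genes with at least 10 normalized counts in at least 3 libraries, with Benjamini-Hochberg adjustment. The fit was tested on simulated data. Whether samples of a gate came from separate animals is not stated, so p-values reflect only how these samples vary, which may be technical. Same-numbered libraries deviated together (r of 0.354, 0.244 and 0.363 across genes), so the number was also used as a block, which came from the labels. Members and lists were chosen with earlier results of these data known. Named were the 8 members, called pathway genes, the 2 most abundant genes per pathway list, the 3 nearest genes per member and up to 3 markers per list; 1 gene that this rule names is not reported here. Exon lengths, positions and overlaps are from GENCODE M21 (GRCm38) and promoters from RefSeq.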

Additional observations from a re-analysis of the deposited data

How the results depend on the processing

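Alternatives were the replicate block, pseudocounts of 0.5 and 5, no filter or a filter at 50, and each library left out; scaling to equal totals or upper quartiles, and leaving out library 3 of both gates without and with the block, were chosen after seeing the data. The planned TMM, edgeR and DESeq2 alternatives were not run. The reason was an automatic check for recovered reads, which rejected 2 BODIPY-high libraries with a step within 0.5% of 1. Their values were nevertheless whole multiples of the step (100%), and their reads are used in the text above. With the block, 3 members were called, as without it, and 2 pathway genes in place of 0 (Htra1 higher, Insr lower); it changed no other call of a member or pathway gene. With the block and without library 3 of both gates, 0 pathway genes were called (Htra1 adjusted p = 0.187). Pathway genes called were 1 with a pseudocount of 5 (Htra1) and 1 with no filter (Irs1). With 1 library left out, 1 to 3 members and 0 pathway genes were called. Igf2 was not called with a pseudocount of 0.5 (adjusted p = 0.0531), which left 2 members, nor without library 3 of both gates (0.0867; with the block added it was called, 0.0261), and a filter at 50 removed it from the test. Over all genes, 259 were called higher and 3 lower, against 558 and 59 with the block, 131 and 1 with the filter at 50, 117 and 0 without library 3 of both gates, and 15 to 271 and 0 to 2 with 1 library left out.

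Signs turned for changes near 0. With 1 library left out, the log2 change ran from -0.0044 to 0.21 for Igf1r, -0.11 to 0.95 for Igf2r, -0.0085 to 0.38 for Igf2bp2, -0.038 to 0.13 for Inpp5d, -0.044 to 0.15 for Pik3cd and -0.021 to 0.038 for Map2k1. For Igfbp7 it ran from 0.017 to 1.003 with no change of sign. Without library 3 of both gates it was -0.0065 for Pik3cd and -0.0066 for Map2k1, without or with the block. The cause was not tested. Of 253 single-gene values, 227 kept direction and side of the threshold, but these pool called genes with genes far from a call. Igf1 kept its call in 11 of 15 alternatives, Igf2 in 7 of 14 and Igfbp2 in 15 of 15. Depth limits Igf2, Igfbp5 and Irs1, which had 9, 7 and 0 reads in the low gate.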
